A study of Danio rerio with 20 samples.

Results

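A set of 200 bright array probes whose signal hardly changed between WT zebrafish of 3 stages was described in *rnaset2* mutants and their WT siblings. The 200 were taken from 43603 probes by a rule that used the 10 WT arrays alone. For each probe the mean log2 intensity of WT fish was taken at 28 hpf, at 3 dpf and in adult brain, and the span was the highest of these means minus the lowest. A span under 0.4 was required, which 4454 probes (10.2%) met, and the 200 of them with the highest average of the 3 means were kept. Brightness and flatness in WT therefore chose these probes and are no finding, and all 200 entered every fit, since no filter on low values was applied.

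The groups were *rnaset2* mutants at 28 hpf (4 arrays), at 3 dpf (3 arrays) and as 1-year-old adult brain (3 arrays), each set against WT siblings of the same stage (4, 3 and 3 arrays). The study names the mutated allele rnaset2 AO127, made earlier by ENU mutagenesis. Embryos of a sample were whole, dechorionated and pooled, whereas adult brains were dissected, so stage and tissue cannot be told apart between brain and embryos. For the youngest embryos, 1 label field gives the age as 28 dpf and the others as 28 hpf, which the study's methods also give and which is used here. At 28 hpf each genotype has arrays numbered 1 and 1.1, and the sources used here do not state whether 1.1 is a separate pool. How arrays divide between clutches or animals is not given either, and each p-value here rests on array-to-array spread alone, which may be technical.

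RNASET2 is a secreted and lysosomal ribonuclease that breaks down RNA delivered to the lysosome, and its loss in humans causes an infantile disease of white matter. On expression arrays, bright signal that holds between tissues and ages is in general known from transcripts that every cell uses, such as those for ribosomal proteins, translation elongation factors and the cytoskeleton, and such transcripts are often chosen as references for other measurements. Whether these 200 probes measure such transcripts is not known here, because the tables used here do not pair probe identifiers with genes. For the same reason no sequence is shown, the tissue labels were not checked against marker genes, and the expression of *rnaset2* itself was not checked. Several probes may measure 1 transcript, so the 200 are not 200 independent genes.

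The deposited values are intensities after quantile normalization, which gives every array nearly the same set of values and leaves only the order of the probes free. The arrays differed by at most 0.034 on the log2 scale at any rank. The brightest value was 589725 on every array. At the top of the scale the steps are short. Rank 1 and rank 10 lay 0.29 apart on the log2 scale, and rank 10 and rank 100 lay 0.76 apart. A log2 difference of a very bright probe is thus a change of rank, bounded by these steps.

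The geometric mean intensity of the 200 probes over the WT stages lay between 15919 and 536641, with a median of 28534. The dimmest of them was brighter than 95.9% of all probes. As bright or brighter were 1782 probes, of which 1582 had a WT span of 0.4 or more and serve below as the bright probes that varied between stages. The 200 probes held 7.18 to 7.46% of the summed intensity on mutant arrays and 7.16 to 7.52% on WT arrays. Their WT span ran from 0.039 up to the limit, with a median of 0.26, and was 0.3 or more in 83 of them. The dimmest member was also the closest to the span limit, at 0.39999 in WT. The next probe in order of brightness had an average log2 of 13.954, against 13.959 for that member. The as bright probe closest to the limit from outside had a WT span of 0.404. In all, 113 probes as bright had WT spans between 0.4 and 0.5, that probe among them, so the limit cuts through a continuous range.

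The brightest member, A_15_P725601, shows how the ceiling of the scale acts on such values. In adult brain it read 589725 on all 3 mutant arrays and 589725, 589725 and 564866 on the WT arrays. It was the brightest probe of the array on 3 of 3 mutant and 2 of 3 WT brain arrays, where the scale leaves a rank 1 probe no spread. At 3 dpf it read 488890, 492792 and 519313 in mutants and 509748, 531920 and 492792 in WT siblings. At 28 hpf it read 499030, 509748, 483808 and 488890 in mutants and 519313, 531920, 519313 and 509748 in WT siblings. The genotypes overlapped at 3 dpf and in brain and met at 1 shared value, 509748, at 28 hpf. The log2 difference, mutant minus WT, was -0.07 at 28 hpf (95% interval -0.15 to 0.01), -0.03 at 3 dpf (-0.13 to 0.06) and 0.02 in adult brain (-0.08 to 0.12), and none of the 3 passed the threshold of limma (adjusted p = 0.18, 0.60 and 0.77).

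The member with the smallest genotype differences over the 3 stages was A_15_P632516. It read 236709, 259994, 229361 and 257369 in mutants and 231709, 251527, 240908 and 259994 in WT siblings at 28 hpf. At 3 dpf it read 255985, 255458 and 231031 in mutants and 250173, 233773 and 261829 in WT siblings. In brain it read 304771, 295716 and 308640 in mutants and 306081, 307219 and 312629 in WT siblings. Mutant and WT arrays overlapped at every stage, and the log2 differences were -0.002, -0.006 and -0.03 in the order of the stages. The 95% intervals ran from -0.12 to 0.12 at 28 hpf, from -0.14 to 0.13 at 3 dpf and from -0.16 to 0.11 in adult brain. Both genotypes were brighter in brain than in embryos, and within mutants the rise from 28 hpf to adult brain was 0.30 (standard error 0.061, adjusted p = 0.00020 from limma).

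The median probe of all 43603 lay below WT siblings in 3 dpf mutants. The 200 bright stable probes had a median closer to WT, which was not shared by all brightness groups among them. The median log2 difference at 3 dpf was -0.01 over the 200 probes, with the central 50% between -0.15 and 0.12, and -0.078 over all probes. It was -0.01 over the 1582 bright probes that varied between stages, but -0.08 over the next 200 stable probes in order of brightness, which lie directly below the 200. In 4 groups of 50, ordered from the brightest to the dimmest members, the medians at 3 dpf were -0.005, 0.07, -0.02 and -0.08, so the 50 dimmest lay as far below WT siblings as all probes did and the second group lay above them. Of the 200 probes, 94 lay above 0 and 106 below, whereas 43.1% of all probes lay above 0. The single mutant arrays at 3 dpf gave medians of -0.03, -0.001 and 0.006 for the 200 probes, measured from the WT mean of each probe, and of -0.084, -0.071 and -0.072 for all probes. On every 3 dpf mutant array the median over all probes was thus below the WT mean. The 200 probes were centred near WT on 2 of the 3 arrays and slightly below on array 1. Since the normalization gives all arrays nearly the same values, these medians describe probes that changed rank. They do not show that a whole array was lower.

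The median difference at 3 dpf varied with brightness and was lowest in the middle of the scale. Ordered by WT brightness and cut into 10 equal groups, probes of the fifth group, at intensities of 133 to 252, had a median difference of -0.14 at 3 dpf. The median was -0.02 in the dimmest group and -0.03 in the brightest, where intensities reached from 5839 upwards and where all 200 bright stable probes lie. At 28 hpf the medians of the 10 groups ran from -0.03 to 0.03, and in adult brain from -0.03 to 0.05. Quantile normalization nearly fixes the value at every rank of an array, and its part in this pattern was not tested.

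The reading at 3 dpf depends on the scale to which arrays are set. With each array centred on its median log2 ratio to the mean of its stage, the median over all probes at 3 dpf became -0.009, and that of the 200 probes became 0.06. On both scales the median of the 200 lay above that of all probes at 3 dpf, and the values give no absolute amount of RNA for either set.

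At 28 hpf the 200 probes lay slightly above WT siblings, with a median of 0.03 and the central 50% between -0.04 and 0.12, beside 0.01 over all probes, 0.03 over the bright probes that varied and 0.02 over the next 200 stable probes. Above the WT mean were 128, 116, 116 and 123 of the 200 on mutant arrays 1, 1.1, 2 and 3. On these arrays 50.2 to 50.9% of all probes were above it. The mean difference was above 0 for 59% of the members, 58.5% of the bright probes that varied and 51.2% of all probes. In adult brain they lay below, with a median of -0.04 and the central 50% between -0.18 and 0.06. The medians there were -0.006 over all probes, 0.02 over the bright probes that varied and -0.04 over the next 200 stable probes. Only 76, 79 and 75 of the 200 were above the WT mean on mutant brain arrays 1, 2 and 3, and 126 of 200 had a negative mean difference. On these arrays 48.9 to 49.1% of all probes were above it. The mean difference was above 0 for 37% of the members and 49.1% of all probes. It was above 0 for 53.9% of the bright probes that varied and 43.5% of the next 200 stable probes. Among 200 probes chosen by the same rule on mutant arrays it was above 0 in brain for 46%, and among 200 chosen on both genotypes for 39.5%. At 28 hpf these shares were 61% and 60%. The size of the lean in brain thus depends on the arrays that choose the probes. The offset of the members from their WT average was -0.045 to -0.041 on mutant brain arrays and -0.003 to 0.027 on WT brain arrays, so the groups did not overlap. Over all probes the offsets were 0.031 to 0.047 on mutant and 0.047 to 0.088 on WT brain arrays, so the groups nearly met. The bright probes that varied were also apart, but with mutants higher, at -0.231 to -0.206 against -0.277 to -0.273. Offsets were not taken for the next 200 stable probes, whose median difference in brain was also -0.04. The WT arrays also set the average from which offsets are measured. Since WT arrays chose the members, the medians of the 3 stages are descriptions without a test.

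Single members did differ between mutants and WT siblings, by small amounts. A probe was called different at an adjusted p under 0.05 in limma, with one spread per probe for all 20 arrays. At 28 hpf 51 of the 200 (25.5%) were called, against a background of 34.5% of all probes, with 39 higher and 12 lower in mutants (background 18.7% and 15.8%). At 3 dpf 85 (42.5%) were called against 53.9%, with 37 higher and 48 lower (background 23% and 30.8%). In adult brain 64 (32%) were called against 35.5%, with 15 higher and 49 lower (background 17.6% and 17.8%). Among the 1582 bright probes that varied, 30.9%, 54% and 41.5% were called in the order of the stages, and among the next 200 stable probes in order of brightness 41%, 54.5% and 44.5%. The members were chosen on WT arrays that also enter these differences.

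The direction of the calls turned with the stage. Calls were higher in mutants for 76.5% of the members called at 28 hpf, 43.5% at 3 dpf and 23.4% in adult brain, while over all probes called these shares were 54.2%, 42.8% and 49.7%. With each array centred on its median ratio the share at 3 dpf was 68.1% for the members (64 higher and 30 lower) and 49.9% for all probes, so no direction is given to the members at 3 dpf. At 28 hpf it was 72.9% and in adult brain 24.6% with the same centring. On the deposited scale 19.5% of members were called higher at 28 hpf. The bright probes that varied had 19.5% and the next 200 stable probes 24%. Called lower at 28 hpf were 6%, 11.4% and 17% in the same order. In adult brain 24.5%, 19.3% and 25% were called lower and 7.5%, 22.2% and 19.5% higher. The members thus stood apart from the next 200 mainly by few calls in the other direction. In brain the lean of the mean differences was smaller among probes chosen on mutant arrays, as given above. In a fit of the adult arrays alone, with the spread taken from brain arrays, 12 of the 200 were called, 2 higher and 10 lower, against 16.1% of all probes. Averaging arrays 1 and 1.1 left 31 members called at 28 hpf, 22 of them higher, against 25.4% of all probes, with 53.6% of those calls higher.

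The arrays of mutants and WT siblings did not overlap for 34% of the members at 28 hpf (background 43.1%), with mutants above in 53 and below in 15 (background 22.7% and 20.4%). At 3 dpf the share was 59.5% (background 63.4%), with mutants above in 52 and below in 67 (background 27.4% and 36%). For adult brain it was 44% (background 39.8%), with mutants above in 27 and below in 61 (background 20.1% and 19.7%). The next 200 stable probes had 49.5%, 64.5% and 54.5% without overlap in the order of the stages. The bright probes that varied had 42.0%, 66.5% and 47.2%. Mutants were below in brain for 30.5% of members, 31.5% of the next 200 and 21.3% of the bright probes that varied. They were above for 13.5%, 23% and 25.9% in the same order. Among 200 probes chosen by the same rule on mutant arrays, mutants were below in brain for 27% and above for 21.5%. Among 200 chosen on both genotypes these shares were 33% and 16.5%.

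The changes were narrow in size. Among the members called, the median absolute log2 difference was 0.23 at 28 hpf, 0.26 at 3 dpf and 0.25 in adult brain, beside 0.45, 0.62 and 0.55 for all probes called. A call together with a change of at least 1.5-fold was reached by 5 members at 28 hpf, 1 at 3 dpf and 2 in adult brain, against 12.2%, 28.8% and 16.5% of all probes. No member differed by 2-fold or more at any stage, whereas 5.72%, 14.1% and 9.45% of all probes did. Among the bright probes that varied 0.63%, 2.84% and 2.97% did, and among the next 200 stable probes 0%, 0.5% and 0%. Changes of this size were thus few in other bright probes too. Called or not, 1.5-fold was reached by 2.5%, 0.5% and 1% of members. The bright probes that varied had 2.15%, 9.73% and 8.28%, and the next 200 stable probes 5%, 7% and 7%. The standard error behind these calls was also small, with a median of 0.055 at 28 hpf and 0.063 at the other stages for members and 0.11 and 0.12 for all probes. The median SD between arrays of a group was 0.052 to 0.060 for members in mutants and 0.053 to 0.073 in WT siblings, highest in WT adult brain. Over all probes it was 0.096 to 0.14 in mutants and 0.099 to 0.16 in WT siblings. Over the bright probes that varied it was 0.057 to 0.074 in mutants and 0.057 to 0.093 in WT siblings. The low spread was thus largely shared by other bright probes.

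The 50 brightest members had the lowest median absolute difference of the 4 groups at each stage. Of these, at ranks 1 to 749, 4 were called at 28 hpf, 13 at 3 dpf and 14 in adult brain. Over all probes 34.5%, 53.9% and 35.5% were called at these stages. The median absolute difference of the 50 brightest was 0.05, 0.09 and 0.08. Of the 50 that follow, at ranks 499 to 2184, 17, 29 and 15 were called, with median absolute differences of 0.10, 0.18 and 0.13. The third group had 13, 25 and 18 calls and the dimmest 17, 18 and 17, with median absolute differences of 0.07, 0.15 and 0.12 and of 0.11, 0.14 and 0.12. The spacing of the upper ranks differs between these groups, and its part was not tested.

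Members named for a rise or fall were picked by size among those called without overlap of the arrays at that stage. The call and the separation at that stage are thus part of the choice. The member with the largest rise was A_15_P421295, at 3 dpf. It read 63456, 59882 and 75342 in 3 dpf mutants and 32389, 38635 and 43452 in WT siblings. All 3 mutant arrays were above all 3 WT arrays, and the mean was 66227 ± 8094 in mutants and 38158 ± 5547 in WT siblings (SD, n = 3 each). The log2 difference was 0.80 (standard error 0.23, adjusted p = 0.0088 from limma), a fold of 1.74. At 28 hpf it read 32001, 33020, 32417 and 42520 in mutants and 36006, 34578, 33636 and 33568 in WT siblings, and the groups overlapped (log2 difference 0.01, adjusted p = 0.97 from limma). Brain arrays read 37261, 25148 and 36182 in mutants and 40392, 30297 and 71884 in WT siblings. The WT brain arrays were spread widely there, and the log2 difference of -0.46 did not pass the threshold (adjusted p = 0.15 from limma). Its size rested on single WT arrays, as it was -0.11 without WT adult brain replicate 3 (adjusted p = 0.70 from limma) and -0.74 without WT adult brain replicate 2 (adjusted p = 0.017).

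The other member named for a rise was A_15_P151431, at 28 hpf. It read 65036, 64322, 67854 and 58103 in 28 hpf mutants and 38545, 37986, 40662 and 45038 in WT siblings. The genotypes were well apart, with a log2 difference of 0.66 (standard error 0.11, adjusted p = 0.00033 from limma). At 3 dpf it read 67071, 61415 and 59056 in mutants and 42911, 43493 and 46991 in WT siblings, again without overlap, and the difference was 0.49 (adjusted p = 0.0050 from limma). Brain arrays read 40443, 32632 and 42520 in mutants and 27577, 41445 and 39789 in WT siblings, and the groups overlapped (log2 difference 0.10, adjusted p = 0.61 from limma). The effect in brain was lower than that at 28 hpf by 0.55 on the log2 scale (adjusted p of the difference 0.023 from limma).

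The member with the largest fall was A_15_P106478, and it was lower in mutants at all 3 stages. In adult brain it read 12960, 11304 and 14619 in mutants and 23613, 23674 and 21391 in WT siblings. At 3 dpf it read 18419, 19420 and 18267 in mutants and 27477, 26093 and 26118 in WT siblings. At 28 hpf it read 19235, 18728, 18961 and 18312 in mutants and 21732, 22913, 23652 and 23502 in WT siblings. No mutant array reached a WT array at any stage. The log2 difference was -0.29 at 28 hpf, -0.51 at 3 dpf and -0.83 in adult brain (standard errors 0.065, 0.075 and 0.075, adjusted p = 0.0027, 2.8e-05 and 3.8e-07 from limma). The SD of intensity in brain was 1658 in mutants and 1301 in WT siblings. It was 391 and 872.5 at 28 hpf and 627 and 792 at 3 dpf. The shared spread thus understates that of the brain arrays, and the brain p-value is to be read with this limit. The effect in brain was lower than that at 28 hpf by 0.54 (adjusted p of the difference 0.00062 from limma).

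The other member named for a fall, A_15_P106916, changed direction with the stage. It read 27723, 29249, 28046 and 27623 in 28 hpf mutants and 20834, 20652, 21174 and 21778 in WT siblings. All mutant arrays were above the WT arrays, with a log2 difference of 0.42 (standard error 0.080, adjusted p = 0.00075 from limma). At 3 dpf it read 16086, 16215 and 18442 in mutants and 15433, 18573 and 18082 in WT siblings, and the groups overlapped (log2 difference -0.04, adjusted p = 0.78 from limma). In adult brain it read 9747, 8737 and 9650 in mutants and 13990, 16038 and 18563 in WT siblings. All mutant brain arrays were below the WT arrays, with a log2 difference of -0.78 (standard error 0.092, adjusted p = 6.8e-06 from limma).

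Most members that were called were called at 1 stage only. Of the 200 members, 64 (32%) were called at no stage, 87 at 1 stage, 34 at 2 and 15 (7.5%) at all 3, against 25.4%, 36.2%, 27.6% and 10.8% of all probes. Among the bright probes that varied these shares were 20.6%, 38.9%, 33.9% and 6.51%, and 3.6% were called at all 3 in differing directions. Of the 15, 1 was higher at every stage (0.5% of members, background 2.79%), 3 were lower at every stage (1.5%, background 3.46%) and 11 differed in direction (5.5%, background 4.56%). On the deposited scale 20 members (10%, against 4.1% of all probes) were called higher at 28 hpf and lower at 3 dpf, among them all of these 11, and 0 the other way round (against 2.83%). With each array centred on its median ratio these counts were 11 (5.5%, against 3.11%) and 2 (1%, against 3.37%), and 10 members were called at all 3 stages, 7 of them in differing directions. The count of such changes of direction thus depends on the scale of the 3 dpf arrays.

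The difference of the genotype effect between stages was also tested. Between 28 hpf and 3 dpf the effect changed for 82 members (41%, background 44.7%), with 30 higher and 52 lower at 3 dpf (background 18.4% and 26.3%). The effect in adult brain differed from that at 3 dpf for 62 members (31%, background 44.2%), with 16 higher and 46 lower in brain (background 24.7% and 19.5%). It differed from that at 28 hpf for 59 members (29.5%, background 31.9%), with 10 higher and 49 lower in brain (background 15.2% and 16.7%). Centring each array gave 52 higher and 37 lower at 3 dpf in the first of these comparisons, so its direction turned with the scale (36.6% of the calls higher as deposited and 58.4% centred, against 41.1% and 49.6% for all probes called). With centring the comparisons of brain with 3 dpf and with 28 hpf had most calls lower in brain, with 11 higher and 58 lower and with 10 higher and 47 lower. The WT side of each such difference was held within 0.4 by the choice of the members.

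The mutant arrays had no part in the choice, so the same span in mutants is an independent measure of how flat these probes were. In mutants 113 of the 200 (56.5%) kept a span under 0.4, against 35.2% of all 4454 probes within the limit in WT and 5.82% of the 1582 bright probes that varied. Neither is a matched background. The 1582 were taken for failing this limit in WT, and the rest of the 4454 are dimmer than the 200. The mutant span had a median of 0.36, against 0.26 in WT, and ran from 0.054 to 1.59. It was 0.5 or more in 52 members and 1 or more in 3. The genotype that did not choose the probes also had the wider span when the rule was mirrored. Chosen by the same rule on mutant arrays, 200 probes had a median span of 0.37 in WT, 111 of them (55.5%) were within the limit there, and 105 were shared with the 200 chosen on WT arrays (52.5% of each list).

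Stage differences within mutants could be tested. From 28 hpf to 3 dpf 148 members (74%, background 70.5%) changed in mutants, 66 higher and 82 lower at 3 dpf (background 28.5% and 42%). Between 3 dpf and adult brain 134 (67%, background 80.3%) changed, 64 higher and 70 lower in brain (background 48.7% and 31.6%). Between 28 hpf and adult brain 141 (70.5%, background 82.5%) changed, 53 higher and 88 lower in brain (background 42.5% and 40%). Among the next 200 stable probes, which met the same span limit in WT, 63%, 63% and 70% changed in the same order. The median sizes in the members were under those of all probes and of the bright probes that varied. Neither is a matched background. The members were chosen for a small WT span, and the bright probes that varied for exceeding the limit. The median absolute difference between stages in mutants was 0.25, 0.24 and 0.22 for the members, beside 0.61, 0.94 and 1.14 for all probes and 0.41, 0.80 and 1.18 for the bright probes that varied. A change of at least 2-fold between stages was found in no member from 28 hpf to 3 dpf, in 1 between 3 dpf and brain and in 2 between 28 hpf and brain, against 30.3%, 47.6% and 54.7% of all probes.

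Of the 87 members that left the limit in mutants, 40 were highest at 28 hpf, 30 at 3 dpf and 17 in adult brain. Lowest were 23 at 28 hpf, 30 at 3 dpf and 34 in adult brain. Such counts were not taken for other probes, so no direction particular to the members is read from them. The widest was A_15_P106916, with mutant means of 14.78 at 28 hpf, 14.04 at 3 dpf and 13.19 in adult brain on the log2 scale, where its WT means were 14.37, 14.08 and 13.97. Mutant and WT means both stepped down with the stage, and the WT span of 0.39 was held under 0.4 by the rule. Among members called at no stage 53 of 64 stayed within the limit in mutants, and among those called at all 3 stages 3 of 15 did. The same arrays enter both measures, so this split is a description.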

How the data were processed

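RNA of 10 mutant and 10 WT samples was measured on single-colour (Cy3) Agilent zebrafish arrays. The authors deposited intensity values, quantile normalized and on a linear scale. Their methods name danRer11 for re-annotating probes, a step the table used here does not include. The sources used here name no background correction, scanner software, slide or scan day, and no batch was tested.

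Intensities were log2-transformed. Means of 6 groups were fitted to 43603 probes with limma 3.58.1 (R 4.3.3; 14 residual and 1.79 prior degrees of freedom), without a filter on dim probes. P-values were two-sided and adjusted by Benjamini-Hochberg over all probes of a contrast, and the fit was tested on simulated data. Medians, spans and group shares are descriptions. The members, the tests and the rule for named probes were chosen with earlier results of these data known. Named were the 6 brightest members, the 2 largest rises and 2 largest falls among members called without overlap of the arrays, the 2 with the smallest genotype differences and those next to the limits. The gene lists and marker genes planned were not run, since probes are not paired with genes here. Same-numbered mutant and WT arrays of a stage had correlations of their deviations from -0.058 to 0.023, so the numbers were not taken as pairs.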

Additional observations from a re-analysis of the deposited data

Results flagged for a closer look

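At 28 hpf, where groups of 4 arrays could be checked for an array far from the other 3, 31 groups of values were checked and 3 had such an array. Chance alone gives about 1 in 20. The median offset of the 200 members from their WT average over the 3 stages was 0.040 on mutant array 1, against 0.007 to 0.011 on the other mutant arrays. Measured from the WT mean at 28 hpf, the medians were 0.040, 0.030, 0.029 and 0.037 on arrays 1, 1.1, 2 and 3. Array 1 did not stand apart on that measure. Without array 1 the median difference at 28 hpf was 0.02. A_15_P421295 read 42520 on mutant array 3, against 32001 to 33020 on the others. The fifth brightest member read 274211 on 1 WT array, against 401646 to 427244 on the others.

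The genotype effect differed between stages for several members by limma's test of the difference itself. For A_15_P106916 it was lower at 3 dpf than at 28 hpf by a log2 of -0.45, lower in adult brain than at 3 dpf by -0.74 and lower in adult brain than at 28 hpf by -1.20 (adjusted p = 0.0066, 0.00023 and 2.6e-06). For A_15_P106478 the effect in adult brain minus that at 3 dpf was -0.32 (adjusted p = 0.022), and minus that at 28 hpf -0.54. For A_15_P421295 the effect in adult brain minus that at 3 dpf was -1.26 (adjusted p = 0.0058), and for A_15_P151431 the effect in adult brain minus that at 28 hpf was -0.55. The size of the brain difference of A_15_P421295 rested on single WT arrays, as given above. Members named for a rise or fall were picked by their effect at 1 stage, which also enters these tests. The choice of the members held the WT side of each difference within 0.4. For the fourth brightest member, whose intensity at 28 hpf was 502975 ± 15229 in mutants and 444942 ± 33269 in WT siblings (SD, n = 4 each), the effect at 3 dpf minus that at 28 hpf was -0.35 and that in adult brain minus that at 28 hpf -0.27 (adjusted p = 0.0032 and 0.025). For the dimmest member the effect at 3 dpf minus that at 28 hpf was -0.34 (adjusted p = 0.014). Over the 200 members the effect differed for 82 between 3 dpf and 28 hpf (41%, against 44.7% of all probes), for 62 between adult brain and 3 dpf (31%, against 44.2%) and for 59 between adult brain and 28 hpf (29.5%, against 31.9%), so none of these shares exceeded that of all probes.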

How the results depend on the processing

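With each array left out in turn, limma called 39 to 47 members at 28 hpf, 67 to 78 at 3 dpf and 53 to 62 in adult brain. The medians ran from 0.017 to 0.035, from -0.021 to -0.0099 and from -0.063 to -0.042 in that order, and 109 to 116 members stayed within the span limit in mutants. The median of -0.063 was that without mutant adult brain replicate 2. With a replicate block 34, 67 and 47 members were called at 28 hpf, 3 dpf and in adult brain, with 25 higher at 28 hpf and 9 higher in brain. Fitted alone, adult brain gave 12. Averaging arrays 1 and 1.1 gave 31 at 28 hpf, and an adjusted p under 0.01 gave 29 there. Requiring 1.5-fold left 5, 1 and 2. Centring each array moved the 3 dpf median to 0.058. With a span under 0.3 that median was -0.032, and with a span under 0.5 the median in adult brain was -0.062. With 100 members 21, 42 and 29 were called, 57 stayed within the limit in mutants, and the medians at 28 hpf and 3 dpf were 0.0077 and 0.0067. With 400 these were 133, 194, 153 and 215 members, and the 3 dpf median was -0.041. Chosen on mutant arrays, where all 200 are within the limit by the rule, the medians were 0.020 at 3 dpf and -0.022 in adult brain, and chosen on both genotypes 0.022 at 3 dpf. The sign of the 3 dpf median thus depends on the scale, on the arrays that choose the members and on how many members are taken. The fourth brightest member lost its call at 3 dpf under 9 of 15 settings. No single member named changed sign with a call. Choosing 1 probe per gene was not run, since probes are not paired with genes here. The number of arrays limits differences of the size seen in most members.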

Other observations

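The genotype differences of the 200 members were weakly related between stages. Across probes, which are not independent replicates and share the normalization, Pearson's r between the differences at 28 hpf and 3 dpf was -0.097 over the 200 members, 0.26 over the 1582 bright probes that varied and 0.25 over all probes. Between 3 dpf and adult brain it was 0.16, -0.063 and 0.15 in the same order, and between 28 hpf and adult brain -0.019, 0.10 and 0.21.

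The member with the second widest span in mutants, singled out after its values were seen, had mutant means of 13.44, 14.23 and 14.49 on the log2 scale at 28 hpf, at 3 dpf and in adult brain. Its WT means were 14.11, 14.04 and 14.34. Its mutant span was 1.05, and its WT span of 0.30 was held under 0.4 by the choice of the members.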
